A study of Mus musculus with 4 samples.

Results

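The 8 genes of arginine, nitric oxide and itaconate metabolism considered in mouse bone marrow cells given heme were Nos2, Arg1, Arg2, Slc7a2, Ass1, Acod1, Sod2 and Odc1. A gene was measured where a probe set of the array carried its symbol alone, and the brightest such probe set stood for it. This held for 7 of the 8 genes, out of 19938 genes read in the same way. The 2 probe sets that list Ass1, the argininosuccinate synthase that helps rebuild arginine from citrulline, also list Gm5424, so Ass1 has no value here.

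In macrophages, arginine enters through cationic amino acid transporters such as the product of Slc7a2 and is then drawn upon by competing enzymes. Inducible nitric oxide synthase, encoded by Nos2 and itself a heme protein, turns arginine into nitric oxide and citrulline. The arginases of the cytosol (Arg1) and of mitochondria (Arg2) split it into urea and ornithine, from which ornithine decarboxylase (Odc1) makes the polyamine putrescine. Acod1 makes itaconate from a citric acid cycle intermediate, and Sod2 removes superoxide in mitochondria. Both are, like Nos2, known to be induced in macrophages by microbial products, while Arg1 is known for its induction by interleukin 4.

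Marrow cells on the B6 background, either labelled Bach1 (-/-) or Bach1 (+/+), were grown with 20 ng/ml GM-CSF for 6 days and then received 40 µM heme (the labels write a lower-case m) or its vehicle, 0.15 M NaCl with 10% NH4OH. Adherent cells were taken 24 hours later, after floating cells had been removed, so each value is of the adherent part of a mixed culture. The groups were labelled knockout with heme, labelled knockout with vehicle, wild type with heme and wild type with vehicle. With 1 array in each of these 4 groups there is no replicate spread, and the differences below carry no p-value. Bach1 is a transcriptional repressor that heme inactivates, and the comparisons ask which genes respond to heme and how this depends on Bach1.

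Median signals of the 4 arrays lay between 30.4 and 31.4. Bach1 itself read 204 in labelled knockout heme and 211 in labelled knockout vehicle, against 264 in wild-type heme and 212 in wild-type vehicle. The place of its probes relative to the deleted stretch is unknown here, which makes this reading no check of the genotype labels. Hmox1, the heme oxygenase gene that Bach1 is known to repress, read 9047 in labelled knockout vehicle against 1827 in wild-type vehicle, and Spic read 298 against 17.0 in the same arrays. Macrophage markers were at level on at least 1 array for 12 of 12 genes, and markers of B, T and NK cells for 0 of 8. Of the macrophage markers, 0 of 12 were called with heme in the labelled knockout by the 2-fold rule given below. In wild type, 4 of 12 (C1qa, C1qb, C1qc and Fcgr1) were called lower with heme and 0 higher. Over all genes at level, 1.20% were called higher and 0.452% lower in the labelled knockout, and 1.17% and 0.891% in wild type. The summed signal of 13 dendritic cell and antigen presentation markers was 3208 and 3819 in labelled knockout heme and vehicle, against 8903 and 11258 in wild-type heme and vehicle. The sum of 14 neutrophil markers was 11892 in labelled knockout heme against 9370 in its vehicle, and 14551 in wild-type heme against 11173 in its vehicle. Each of these sums follows its brightest genes, so it need not show how most markers of a set moved. In such bulk samples, fewer cells of a type and less RNA per cell cannot be told apart.

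A gene was called higher or lower where 2 arrays differed by 2-fold or more (a log2 difference of 1) and the brighter reached 30.96, the median signal of all values, which is what "at level" means. All 7 measured genes were at level in every comparison. Over all genes at level, the robust SD of the log2 difference lay between 0.25 and 0.28 in the comparisons of 2 arrays and was 0.32 for the difference between heme responses. It mixes technical noise with real differences and is no replicate error.

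**Figure D1:**
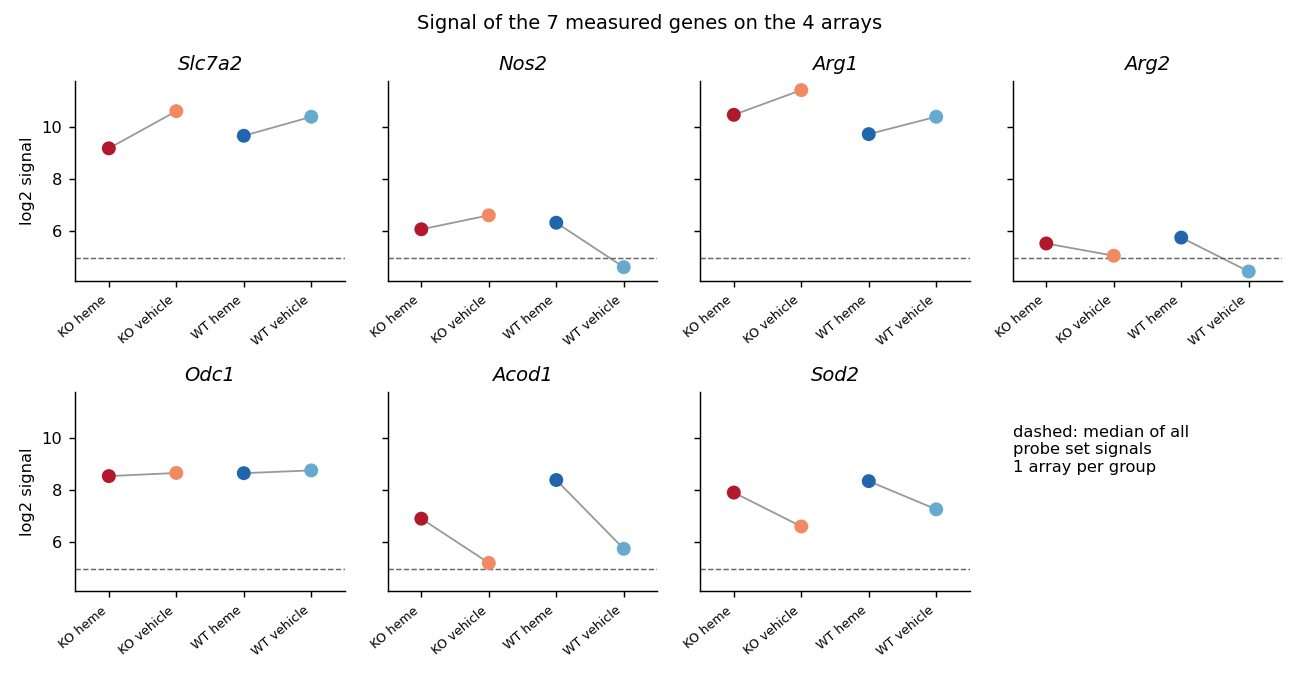
Log2 signal of the 7 measured genes on the 4 arrays, with KO for the arrays labelled Bach1 knockout and WT for wild type, points for single arrays and grey lines joining heme to vehicle within a genotype. Nos2 is low on the wild-type vehicle array alone, Slc7a2 and Arg1 are lower with heme in both genotypes, and Acod1 and Sod2 are higher with heme in both. Odc1 is nearly level on the brighter probe set, which is the one drawn.

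Heme went with higher Acod1 and Sod2 and with lower Slc7a2 and Arg1 signals in both genotypes, whereas Nos2 and Arg2 were at least 2-fold higher with heme in wild type alone among the 2 responses. In labelled knockout cells, 2 of the 7 genes were higher with heme (Acod1 and Sod2) and 1 was lower (Slc7a2), where 1.20% of all genes at level were called higher and 0.452% lower. In wild-type cells, 4 of 7 were higher (Nos2, Arg2, Acod1 and Sod2) and 0 lower, against 1.17% and 0.891% of all genes. The median log2 difference of the 7 genes was -0.12 in the labelled knockout and 1.09 in wild type, beside -0.02 and 0.00 over all genes measured. With only 7 genes chosen for what they do, these medians describe the list and no more.

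**Figure D2:**
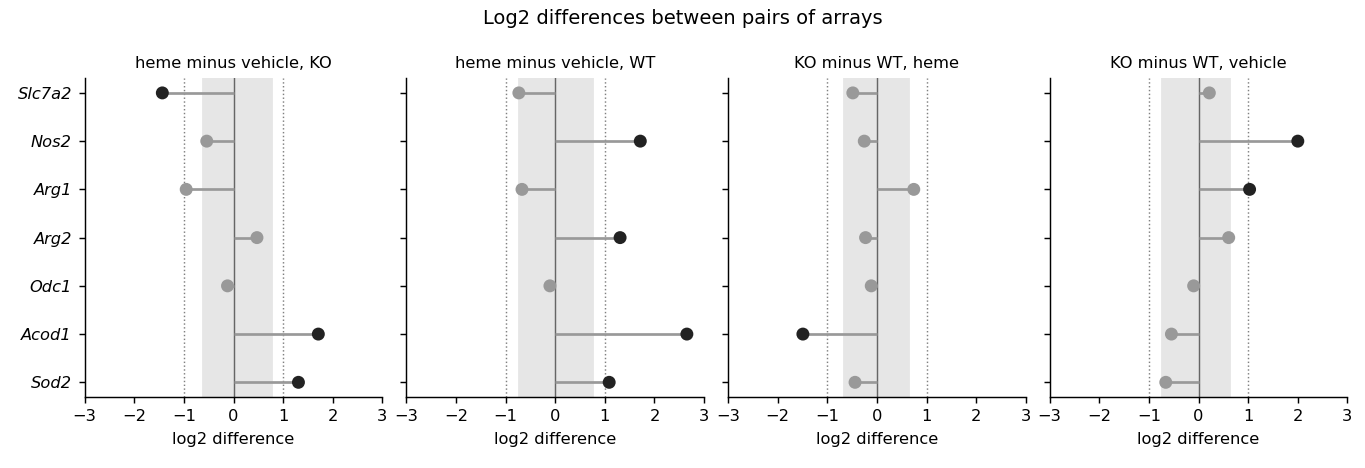
Log2 differences of the 7 genes in the 4 comparisons of 2 arrays, with black points at 2-fold or more, dotted lines at 2-fold and a grey band holding the central 95% of genes at level. Acod1 and Sod2 pass 2-fold with heme in both genotypes, and Nos2 passes it with heme in wild type and for the labelled knockout in vehicle. Odc1, drawn from its brighter probe set, lies inside the band throughout.

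Slc7a2, a transporter that carries arginine and other cationic amino acids into the cell, read 586 in labelled knockout heme against 1583 in its vehicle, and 819 in wild-type heme against 1361 in its vehicle. Both heme arrays were thus below both vehicle arrays. With heme the reading was 2.70-fold lower in the labelled knockout (log2 difference -1.43, rank 11 from the bottom of 10843 genes) and 1.66-fold in wild type (-0.73). Between genotypes the gene differed little: the labelled knockout was lower by 1.40-fold with heme and higher by 1.16-fold in vehicle.

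Nos2, the inducible nitric oxide synthase, read 67.3 in labelled knockout heme and 97.8 in labelled knockout vehicle, against 80.2 in wild-type heme and 24.4 in wild-type vehicle. The wild-type vehicle array stood alone, 2-fold or more below each of the others and under the level filter, while the other 3 arrays lay within 1.45-fold of each other. Such a place, alone and 2-fold below the rest, was held by that array at 16 of 11155 genes (0.143%), and Nos2 was the only one of the 7 measured genes among them. Hmox1 and Spic were also among these 16. Hmox1 read 10330 in labelled knockout heme, 9047 in labelled knockout vehicle and 9881 in wild-type heme, against 1827 in wild-type vehicle. Spic read 679, 298 and 429 on the same arrays, against 17.0 in wild-type vehicle.

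The Nos2 differences that use the wild-type vehicle array were accordingly the large ones. With heme the wild-type reading was 3.28-fold higher (log2 difference 1.71, rank 25 of 10772), and in vehicle the labelled knockout was higher by 2.00 in log2 (rank 5 of 10859). Without that array, the labelled knockout read lower with heme than with vehicle (-0.54), and lower than wild type when both had heme (-0.25). The heme response of the labelled knockout minus that of wild type was -2.25 for Nos2, rank 6 from the bottom of 11155 genes. Hmox1 (-2.24, rank 7) and Spic (-3.47, rank 1) lay at the same end. Nos2 was the only one of the 7 genes called in that comparison, in which 0.879% of all genes were called lower and 1.17% higher. With 32 added to each signal, which shrinks folds of dim probe sets, Nos2 was 1.99-fold higher with heme in wild type, just short of 2-fold, and 2.30-fold higher in the labelled knockout in vehicle. A filter at the 75th percentile of all values, a signal of 106, leaves Nos2 out, since its brightest array read 97.8.

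Arg1, the cytosolic arginase, read 1434 in labelled knockout heme against 2778 in its vehicle, and 857 in wild-type heme against 1362 in its vehicle. Labelled knockout vehicle was the highest array and wild-type heme the lowest, 3.24-fold apart, while labelled knockout heme and wild-type vehicle differed by 0.07 in log2. With heme, Arg1 was 1.94-fold lower in the labelled knockout and 1.59-fold lower in wild type, both short of 2-fold. With quantile normalization applied a second time, the log2 difference in the labelled knockout was -1.03, past 2-fold.

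In vehicle the labelled knockout was 2.04-fold higher for Arg1 (log2 difference 1.03), and with heme in both genotypes it was 1.67-fold higher (0.74). The labelled knockout was therefore the higher array for Arg1 in both treatments. The 2 comparisons share no array, but with 1 array per group they are no replicates of each other. Only the comparison in vehicle passed 2-fold, and narrowly. Of the 7 genes, 0 were called higher and 1 lower (Acod1) for the labelled knockout with heme, against 0.519% and 0.973% of all genes. In vehicle, 2 were higher (Nos2 and Arg1) and 0 lower, against 0.525% and 1.14%. Medians of the 7 genes were -0.25 with heme and 0.22 in vehicle, beside 0.00 and 0.01 over all genes measured. The dendritic cell and antigen presentation markers moved with genotype. Of 13 measured, 10 were at level in both treatments, and 7 of these were lower in the labelled knockout with heme and 8 in vehicle. Of the macrophage markers, 1 of 12 was lower with heme (C1qc) and 4 of 12 in vehicle, namely C1qa (-2.80), C1qc (-2.42), C1qb (-2.00) and Fcgr1 (-1.48). The other macrophage markers were not called in either treatment. Some read higher in the labelled knockout, such as Mrc1 (0.70 with heme and 0.20 in vehicle), and others lower, such as Csf1r (-0.14 and -0.46). The summed signal of the 12 was 20520 and 20816 in labelled knockout heme and vehicle, against 19454 and 21697 in wild-type heme and vehicle. Lyz2 alone gave 10122 and 10705 of these in the labelled knockout, and 9990 and 10118 in wild type. The sum therefore follows its brightest genes and says little on the dimmer ones. C1qa read 31.9 and 30.6 in labelled knockout heme and vehicle, against 48.9 and 213 in wild-type heme and vehicle. The wild-type vehicle array thus stood apart at both genes, but as the highest at C1qa and the lowest at Nos2. The part of either marker set in the Arg1 and Nos2 differences was not tested.

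Arg2, the mitochondrial arginase, was dim. It read 46.0 in labelled knockout heme and 33.2 in labelled knockout vehicle, against 53.9 in wild-type heme and 21.8 in wild-type vehicle, the last of these below the level filter. Both heme arrays lay above both vehicle arrays. The heme difference was 1.39-fold in the labelled knockout (log2 0.47) and 2.48-fold in wild type (1.31), which became 1.60-fold with 32 added to each signal. The 2 arginases thus ran in opposite directions with heme in both genotypes, Arg1 lower and Arg2 higher, although in each genotype no more than 1 of them passed 2-fold.

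Odc1, which draws on the ornithine that arginase releases, read 371 in labelled knockout heme and 404 in labelled knockout vehicle, against 401 in wild-type heme and 432 in wild-type vehicle. On this probe set, the brighter one, the 4 arrays lay within 1.16-fold, the narrowest range of the 7 genes. A dimmer probe set for Odc1 read 158 and 140 in labelled knockout heme and vehicle, against 167 and 223 in wild-type heme and vehicle. There the log2 difference of the labelled knockout from wild type in vehicle was -0.67, where the brighter probe set gave -0.10. For heme against vehicle the dimmer one gave 0.17 in the labelled knockout and -0.42 in wild type, where the brighter gave -0.12 and -0.11. The probe sets of Odc1 thus disagree on these comparisons, although neither passed 2-fold in them. Which of them reads Odc1 better was not tested.

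Acod1, the enzyme that makes itaconate, spanned the widest range of the 7 genes, 9.18-fold. It read 119 in labelled knockout heme against 36.4 in its vehicle, and 334 in wild-type heme against 53.2 in its vehicle. With heme the reading was 3.27-fold higher in the labelled knockout (log2 difference 1.71, rank 14 of 10843 genes) and 6.29-fold higher in wild type (2.65, rank 5 of 10772).

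The labelled knockout was the lower array for Acod1 in both treatments, 2.81-fold with heme (-1.49, rank 36 from the bottom of 10790 genes) and 1.46-fold in vehicle (-0.55). Wild-type heme stood alone, 2-fold or more above each other array, a place that array held at 18 of 11155 genes (0.161%). The heme response of the labelled knockout minus that of wild type was -0.94, just short of 2-fold. Acod1 and Nos2, which are often read together as products of inflammatory activation, differed in sign between genotypes in vehicle (-0.55 and 2.00), where only Nos2 passed 2-fold.

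Sod2, the superoxide dismutase of mitochondria, read 239 in labelled knockout heme against 96.5 in its vehicle, and 324 in wild-type heme against 153 in its vehicle. Both heme arrays lay above both vehicle arrays. The difference was 2.48-fold in the labelled knockout (1.31, rank 54 of 10843) and 2.13-fold in wild type (1.09, rank 101 of 10772), and with 32 added to each signal the wild-type value was 1.93-fold. As for Acod1, the labelled knockout read lower in both treatments, by 1.36-fold with heme and 1.58-fold in vehicle, neither of which reached 2-fold. Neutrophil markers had 0 of 13 genes at level called higher with heme in the labelled knockout and 4 of 12 in wild type. Of all genes at level, 1.20% and 1.17% were called higher. The summed signal of the 14 markers was higher with heme in both genotypes, but a sum follows its brightest genes. Their median log2 difference was 0.17 in the labelled knockout and 0.41 in wild type. The part of neutrophil markers in the Acod1, Sod2 and Arg2 differences was not tested.

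**Figure D3:**
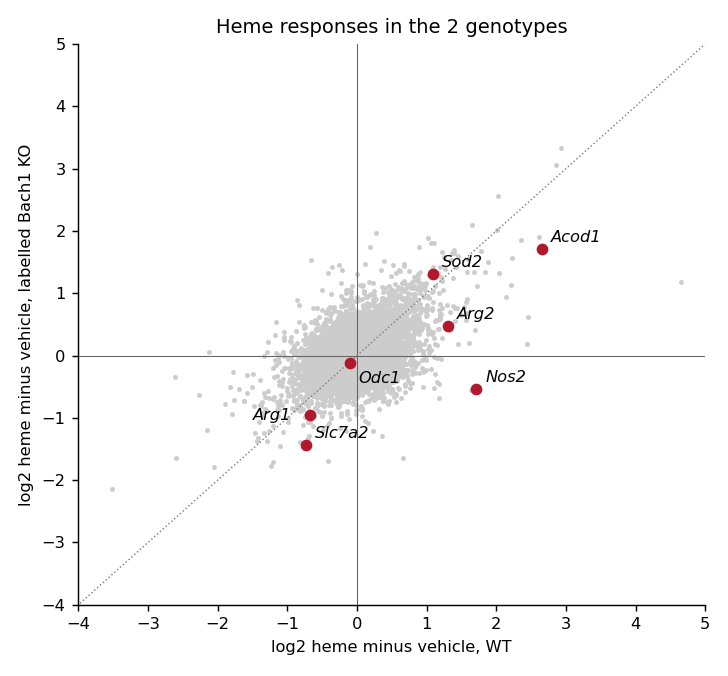
Log2 heme minus vehicle in the labelled knockout (vertical axis) against wild type (horizontal axis), with grey points for genes at level in both comparisons, red points for the 7 measured genes and a dotted line of equal response. Sod2 lies near the line, Acod1 and Arg2 below it on the side of larger wild-type responses, and Nos2 in the quadrant of opposite directions (-0.54 in the labelled knockout and 1.71 for wild type).

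Promoter sequences were held for 3 of the 7 measured genes, from RefSeq on GRCm38.p6: Acod1 and Sod2, which were higher with heme in both genotypes, and Odc1, which was not. They are shown so that the windows of genes called with heme can be set beside that of a gene that was not called. The 250 bases before the start of each gene, plus strand, are chr14:103046762-103047011 for Acod1, chr17:13007589-13007838 for Sod2 and chr12:17544623-17544872 for Odc1, with capitals for matches to the motifs named after them.
Acod1: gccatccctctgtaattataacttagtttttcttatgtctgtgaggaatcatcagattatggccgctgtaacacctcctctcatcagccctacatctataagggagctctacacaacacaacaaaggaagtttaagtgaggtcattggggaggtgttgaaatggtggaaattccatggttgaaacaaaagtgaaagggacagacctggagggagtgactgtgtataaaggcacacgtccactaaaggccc
Sod2: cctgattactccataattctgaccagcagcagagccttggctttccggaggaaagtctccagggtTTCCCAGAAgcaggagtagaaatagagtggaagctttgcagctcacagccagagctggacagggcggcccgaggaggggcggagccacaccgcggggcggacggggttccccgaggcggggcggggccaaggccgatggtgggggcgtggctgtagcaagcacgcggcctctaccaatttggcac
Odc1: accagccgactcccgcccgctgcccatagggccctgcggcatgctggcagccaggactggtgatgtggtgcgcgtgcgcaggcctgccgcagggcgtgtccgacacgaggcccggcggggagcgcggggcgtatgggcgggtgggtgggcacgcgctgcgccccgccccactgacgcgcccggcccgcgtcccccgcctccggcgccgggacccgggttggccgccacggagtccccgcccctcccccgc
In windows of 300 bases, which add 50 bases past the start, 6 motifs were searched on both strands, with overlaps allowed. They were TGACNNNGC (core of the BACH1 and NRF2 site, in 12.4% of 32851 windows of all genes), a core of the IRF site (3.44%), TTCNNNGAA (STAT, 8.30%), a form of the NF-kB site (1.63%), TTGCNNAA (C/EBP, 10.8%) and CACGTG (E-box, 7.15%). The only match in the 3 windows was to the STAT letters in Sod2, from 185 to 177 bases before its start. The windows differ in base composition: G and C made up 47.0% of that of Acod1, 64.3% of Sod2 and 78.0% of Odc1, where the median window had 52.7%. A match is a description of letters, and its absence says only that these letters are not in this window.

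Beyond the 7 genes, 110 further measured genes stood in 9 lists drawn up by pathway membership, with earlier results of these data known. The shares called therefore describe these lists and no more. With heme, 2 of 96 at level were higher in the labelled knockout (2.08%, against 1.20% of all genes) and 0 lower, while 0 of 95 were called either way in wild type. For the labelled knockout against wild type, 5 of 96 were lower with heme (5.21%, against 0.973% of all genes) and 6 of 95 in vehicle (6.32%, against 1.14%), and 0 were higher in either. Those that were lower belonged to the alternative activation list, apart from the kinase gene Jak2.

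Of 23 measured genes of arginine and nitric oxide metabolism, 15 or 16 were at level in each comparison, and the rest were too dim to be called. So few genes limit what a count of calls says of this list. Outside the 7 genes, only Slc3a2, the heavy chain shared by several amino acid transporters, was called. This was with heme in the labelled knockout, where 1.20% of all genes at level were called higher. Slc3a2 read 1211 in labelled knockout heme against 578 in its vehicle (2.09-fold), and 1056 in wild-type heme against 756 in its vehicle (1.40-fold). Slc3a2 was thus higher with heme where Slc7a2 was lower. The 7 measured genes for tetrahydrobiopterin, the cofactor of nitric oxide synthases, had 0 called in any comparison. Among them Gch1, the first enzyme of that pathway, read 81.8 and 73.0 in labelled knockout heme and vehicle, against 97.1 and 82.8 in wild-type heme and vehicle.

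Of 13 measured polyamine genes, 10 were at level and 0 were called between any 2 arrays. Srm, the spermidine synthase, read 83.0 in labelled knockout heme and 46.0 in labelled knockout vehicle, against 78.4 in wild-type heme and 87.8 in wild-type vehicle. Labelled knockout vehicle was the low array, and the heme response of the labelled knockout minus that of wild type was 1.02 for Srm, the only list gene called higher in that comparison. The 6 measured genes of proline and ornithine metabolism, 5 of them at level, had 0 called. Their medians were -0.16 with heme in the labelled knockout and -0.37 in wild type.

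Acod1 stood apart within its list. Among 17 measured genes of itaconate and citrate metabolism, it was the only one called in any comparison, and the list medians lay between -0.05 and 0.03 in all 5.

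Superoxide and peroxide genes held another member near Sod2 in size. Cat, the catalase of peroxisomes, read 942 in labelled knockout heme against 447 in its vehicle (2.11-fold), and 724 in wild-type heme against 385 in its vehicle (1.88-fold). Sod1, the cytosolic dismutase, read 2660 with heme against 1442 with vehicle in the labelled knockout, and 2390 with heme against 1374 with vehicle in wild type. Neither of these passed 2-fold in wild type. Of 16 measured genes of this list, 15 were at level. Sod2 and Cat were called higher with heme in the labelled knockout, and Sod2 alone in wild type. Of all genes at level, 1.20% and 1.17% were called higher.

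Among 12 measured genes that relay signals known to induce Nos2, Acod1 and Sod2, 0 were called with heme in either genotype. Jak2, a kinase of the interferon gamma and GM-CSF receptors, was called lower in the labelled knockout in both treatments. It read 175 in labelled knockout heme against 485 in wild-type heme, and 132 in labelled knockout vehicle against 454 in wild-type vehicle. The list median was -0.20 with heme and -0.27 in vehicle. The 10 inducers linked to Arg1, such as Stat6 and Il4ra, had 0 called in any comparison. The alternative activation list, which did not include Arg1, had 12 of 14 genes at level. Of these, 4 were lower in the labelled knockout with heme and 5 in vehicle, against 0.973% and 1.14% of all genes. Because the list was drawn up with earlier results of these data known, the counts describe it and no more. The largest differences were those of the chemokine genes Ccl17 (-3.74 with heme and -3.83 in vehicle) and Ccl22 (-2.99 with heme and -2.30 in vehicle). Mgl2 (-1.39 with heme and -1.69 in vehicle) and Pdcd1lg2 (-1.13 with heme and -1.55 in vehicle) followed.

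**Figure D4:**
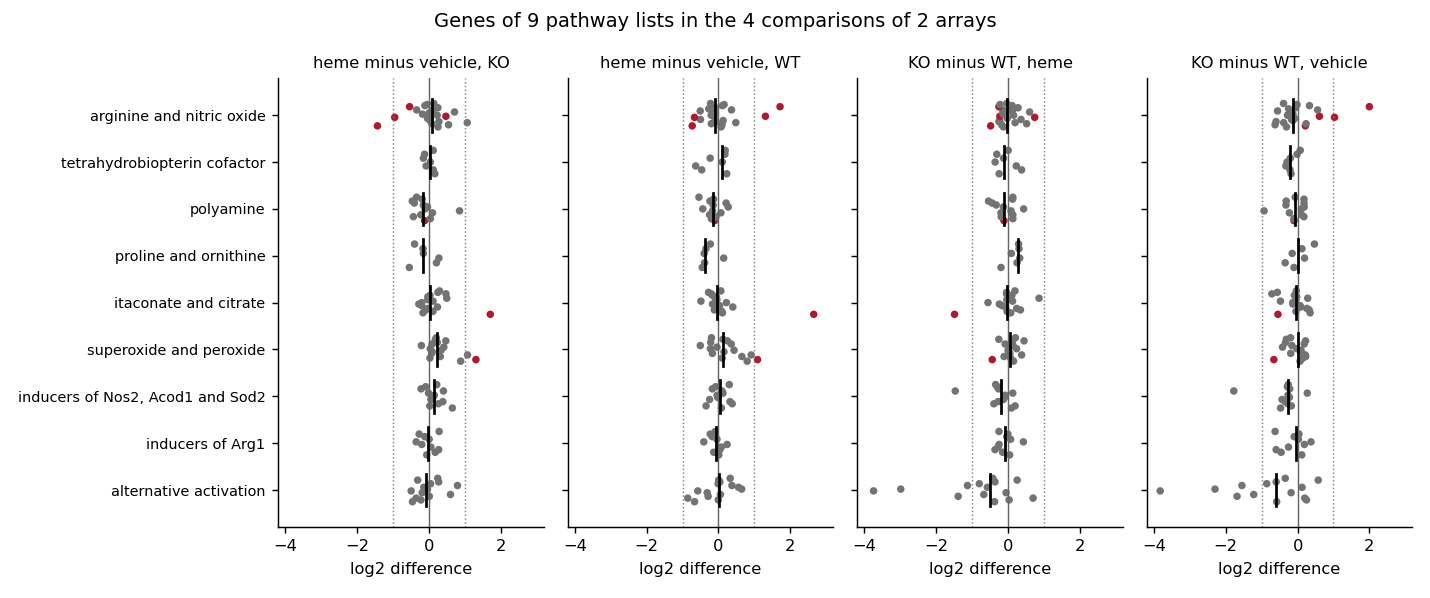
Log2 differences of every measured gene of the 9 pathway lists in the 4 comparisons of 2 arrays, with red points for the 7 genes followed here, grey points for the others, black bars for list medians and dotted lines at 2-fold. Most points lie inside 2-fold, Acod1 is alone past 2-fold in its list, and several alternative activation genes lie to the left in the labelled knockout.

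The genes whose pattern over the 4 arrays came nearest to each of the 6 genes called in any comparison were sought among 10458 named genes at level, by the Euclidean distance between log2 signals centred on each gene's mean. With 4 arrays this is a likeness of shape only. Arg2 lay nearest to Mmp9, a gelatinase of neutrophils and macrophages, at a distance of 0.05, and Arg1 to Cd200, an inhibitory surface ligand, at 0.07. Sod2 lay nearest to Il1b, the gene of interleukin 1 beta, at 0.24. Acod1 had Il1f9, Saa3 and Cxcl3 as its nearest genes, at 0.39, 0.56 and 0.57.

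Slc7a2 lay nearest to B3gnt7 (0.23) and to Fdps (0.29), an enzyme of cholesterol synthesis. For Nos2 the nearest genes were Cib3 at 0.39, Cenpw at 0.44 and Ankrd37 at 0.63, distances similar to those of Acod1. From a profile level over all arrays, however, Nos2 lay only 1.54 away and Acod1 2.45. The same distance is therefore a poorer likeness for Nos2. Cib3 was also dim, with 19.7 and 33.9 in labelled knockout heme and vehicle, and 22.5 and 9.61 in wild-type heme and vehicle.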

How the data were processed

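Total RNA of 4 cultures was labelled with biotin and hybridised to a mouse array of 35556 probe sets. The deposited values are linear intensity after RMA, which the authors ran, per the submitters' processing notes. Tool versions and a genome build are not given in the sources used here. The design text also describes sorted progenitors and another RNA kit, which do not match the sample labels, and the labels were followed. No detection calls were used here, so how far a dim signal lies above background is unknown, and 1 array per group limits the precision.

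Values were taken to log2 without further scaling. The array annotation gave 21789 probe sets a single symbol and 1621 several, and did not list 12146. Symbols were updated through the RefSeq table of GRCm38.p6, which matched 21698. For 999 genes with several probe sets the one with the highest mean was used. The named genes were the 8 listed, up to 4 called genes of each pathway list, and the 3 nearest profiles, of which the text gives some. Sod1, Gch1, Stat6 and Il4ra were named after their values were seen. The members, lists and thresholds were chosen with earlier results of these data known. The comparison of the arginase proteins that had been planned was not run. The calling rule was run on simulated data with planted 3-fold changes, which checks the code and says nothing on the calls made here. The alternatives tried were folds of 1.5 and 3 as the rule, a stricter filter on dim genes (75th percentile) or none, repeated quantile normalization, lowess centring, 32 added to each signal, and averaging the probe sets of a gene. Scripts ran in Python 3.11.15 with pandas 2.3.3, numpy 2.4.6, statsmodels 0.14.6 (lowess) and matplotlib 3.10.9.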

Additional observations from a re-analysis of the deposited data

Results flagged for a closer look

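Some genes had differences of opposite sign in the 2 genotypes or in the 2 treatments, and with 1 array per group none of these differences was tested. Values are the log2 heme response of the labelled knockout minus that of wild type. Nos2 (-2.25) was lower with heme in the labelled knockout (-0.54) and higher in wild type (1.71), and the labelled knockout was lower with heme (-0.25) and higher in vehicle (2.00). The labelled knockout was also lower with heme and higher in vehicle for Arg2 (-0.84) and Slc7a2 (-0.70). The reverse, higher with heme and lower in vehicle, held for Slc3a2 (0.58) and Srm (1.02). Srm was also higher with heme in the labelled knockout and lower in wild type. The heme responses of Mgl2 (0.30) and Ccl22 (-0.69) differed in sign too, with a labelled knockout response close to 0 in both. The same held for C1qa (2.18), whose response was -2.12 in wild type.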

How the results depend on the processing

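Of 140 recomputed log2 differences of the 7 genes, 138 kept their sign, and the other 2 were those of Odc1 with the mean of its probe sets (0.03 for the heme response in the labelled knockout and 0.29 for the difference between responses). In 131 the value moved by less than the robust SD of its comparison. Counts of genes at 2-fold moved more. With heme in the labelled knockout, 2 were higher and 1 lower: a 3-fold rule gave 1 and 0, and both a 1.5-fold rule and repeated quantile normalization gave 2 lower, adding Arg1. With heme in wild type, 4 were higher and 0 lower: a 3-fold rule and a filter at the 75th percentile gave 2 higher, 32 added to each signal gave 1 (Acod1), and a 1.5-fold rule gave 2 lower. For the labelled knockout with heme, a 1.5-fold rule gave 1 higher (Arg1), and a 3-fold rule 0 lower. For the labelled knockout in vehicle, a 3-fold rule gave 1 higher (Nos2), a filter at the 75th percentile 1 (Arg1), and a 1.5-fold rule 3 higher (adding Arg2) and 1 lower (Sod2). For the difference between heme responses, a 1.5-fold rule gave 4 lower and a filter at the 75th percentile 0. Leaving out the filter and lowess centring changed none of these counts. The changes under another fold rule or filter follow from its construction. For the others the cause was not tested. No paired analysis was possible because each group held 1 array. Dim signals limit Nos2 and Arg2 above all, whose wild-type vehicle values lie below the median of all values.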
